A study of Macaca fascicularis with 16 samples.

Results

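In lung tissue of the cynomolgus monkey (Macaca fascicularis, a macaque), 40 genes had levels that put all old libraries on one side of all young libraries. They were 8 genes higher and 32 genes lower in old lungs, out of 27966 genes in the files. The members were chosen by a rule on counts per 1000000 counts assigned to genes (CPM). A gene had to have a mean of at least 5 CPM over the 16 libraries, and its lowest value in 1 age class had to exceed its highest value in the other. The 200 genes of highest mean CPM and 7 further genes were left out, which left 12121 eligible genes. Since the rule uses the age contrast itself, the age differences below are descriptions, given with no p value. Counts of genes called for age appear once, only to place the members.

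The libraries were made from bulk RNA of lung in 4 groups of 4, from females and males of 2 age classes, old and young. The labels give age only as old or young, with no age in years, and name no treatment, strain or batch. They do not tie libraries to separate animals, so the spread between libraries may be partly technical. Depth, as counts assigned to genes, ran from 6529562 to 11718427 per library. The files identify genes by Ensembl number alone, and a name table of 40596 genes paired 0 of them with a symbol. The lung markers of epithelium, endothelium, fibroblasts and immune cells could therefore not be looked up, and the labelled tissue was not checked against them.

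The lung is a mixture of alveolar and airway epithelium, a dense capillary network, connective tissue cells and resident and passing immune cells. Bulk RNA sequencing sums the transcripts of all of these. A lower value of a gene in such a sample can reflect fewer cells of a type or less of its RNA per cell, and these cannot be told apart. With age, lungs are known to lose elastic recoil and to show changes in extracellular matrix and in immune cells. Such tissue varies from piece to piece, and a rule that asks for no overlap at all between classes is therefore strict on each single library.

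The 40 genes were 0.33% of the eligible genes. The share was 0.066% for genes higher in old lungs and 0.264% for genes lower in old lungs, so 80.0% of the members were lower. Over all eligible genes, 49.7% had a higher edgeR estimate in old than in young libraries, with TMM factors (described below) rather than total counts. On total counts, which the rule uses, the median log2 ratio of eligible genes to the young mean was negative in every old library, from -0.11 to -0.0019. In young libraries it ran from -0.055 to 0.055. The 80.0% and the 49.7% are thus on unlike scalings. The age differences of the members were mostly small. Among the 8 genes higher in old lungs the ratio of the class means (old over young) ran from 1.21 to 4.38, with a median of 1.53. Among the 32 genes lower in old lungs the ratio of young over old ran from 1.17 to 2.59, with a median of 1.39. A ratio of at least 2 was reached by 2 of the 8 and 2 of the 32. The median level was 17.8 CPM for the genes higher in old lungs and 38.5 CPM for those lower, against 33.4 CPM over all eligible genes. These values are shares of a library and do not rank genes per transcript length.

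**Figure D1:**
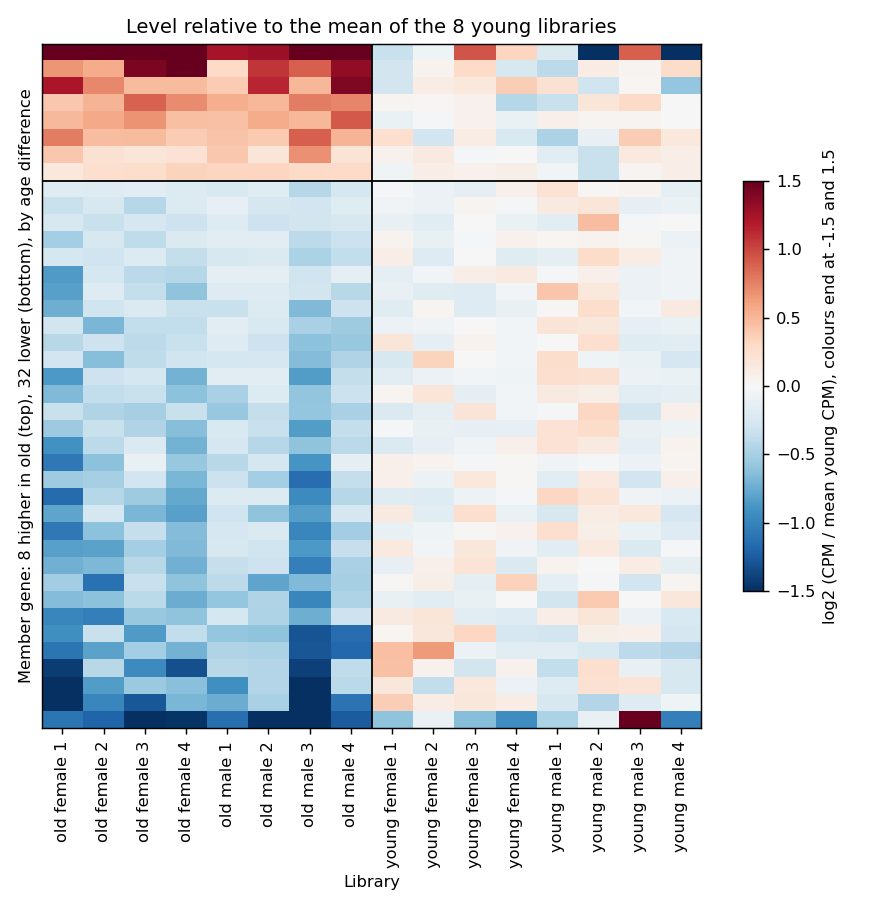
Level of each of the 40 member genes (rows) in each of the 16 libraries (columns), as log2 of CPM over the mean of the 8 young libraries, with red above and blue below that mean. The 8 genes higher in old lungs form the upper block and the 32 lower ones the lower block, where old female 1 and old male 3 are the darkest columns, with median ratios of 0.590 and 0.583.

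The gap of a gene is the ratio of the lowest value in its higher class to the highest value in its lower class. ENSMFAG00000002115 had the widest gap, 1.29. Its lowest, median and highest values were 21.3, 22.5 and 29.7 CPM in the 8 old libraries and 14.6, 15.8 and 16.5 CPM in the 8 young ones. The young libraries of this gene lay within 2 CPM of each other, and the old ones spread more, with old male 4 the highest. The class means were 23.4 ± 2.82 CPM in old and 15.7 ± 0.746 CPM in young libraries (SD, n = 8 each), and edgeR estimated a log2 fold change of 0.59 (SE 0.089).

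ENSMFAG00000026497 had the next widest gap, 1.22, and the largest ratio of all members, 4.38. Its lowest, median and highest values were 4.60, 7.15 and 15.0 CPM in old and 0.0853, 1.78 and 3.77 CPM in young libraries. The lowest young value, in young male 2, was 1 count, so this gene was close to the limit of detection in some young lungs. Old females 2 and 3 were the highest, at 15.0 and 14.2 CPM, and all 4 old males lay under 7.5 CPM. The class means were 8.59 ± 3.97 CPM in old and 1.96 ± 1.31 CPM in young libraries (SD, n = 8 each), with a log2 fold change of 2.13 (SE 0.44).

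The other 6 genes higher in old lungs had gaps of 1.09 or less. For 3 of the 8 the gap was under 1.01, so that the nearest old and young libraries had almost the same level. The most abundant of the 8, picked out for its level, had 349 to 1005 CPM in old and 215 to 346 CPM in young libraries. Its mean was 602 ± 216 CPM in old and 284 ± 49.5 CPM in young lungs (SD, n = 8 each), yet its gap was only 1.008, between old male 1 and young female 3. Of the 8 genes, 5 had a mean under 20 CPM and 3 a mean of at least 100 CPM.

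Among the genes lower in old lungs, ENSMFAG00000013715 had the widest gap, 1.10. Its lowest, median and highest values were 12.4, 16.1 and 18.4 CPM in old and 20.2, 23.4 and 31.9 CPM in young libraries. Old male 3 was the lowest of all libraries for this gene and young male 2 the highest. The class means were 16.1 ± 1.98 CPM and 24.4 ± 3.73 CPM (SD, n = 8 each), and the log2 fold change was -0.60 (SE 0.12).

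ENSMFAG00000041520 followed with a gap of 1.07. It had 19.5, 26.4 and 29.8 CPM as the lowest, median and highest values in old libraries and 32.03, 32.8 and 42.2 CPM in young ones. Of the young libraries 6 lay between 32.03 and 34.6 CPM, and young males 1 and 2 stood above them. The class means were 25.5 ± 3.36 CPM in old and 34.9 ± 4.10 CPM in young libraries (SD, n = 8 each), with a log2 fold change of -0.45 (SE 0.098).

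**Figure D2:**
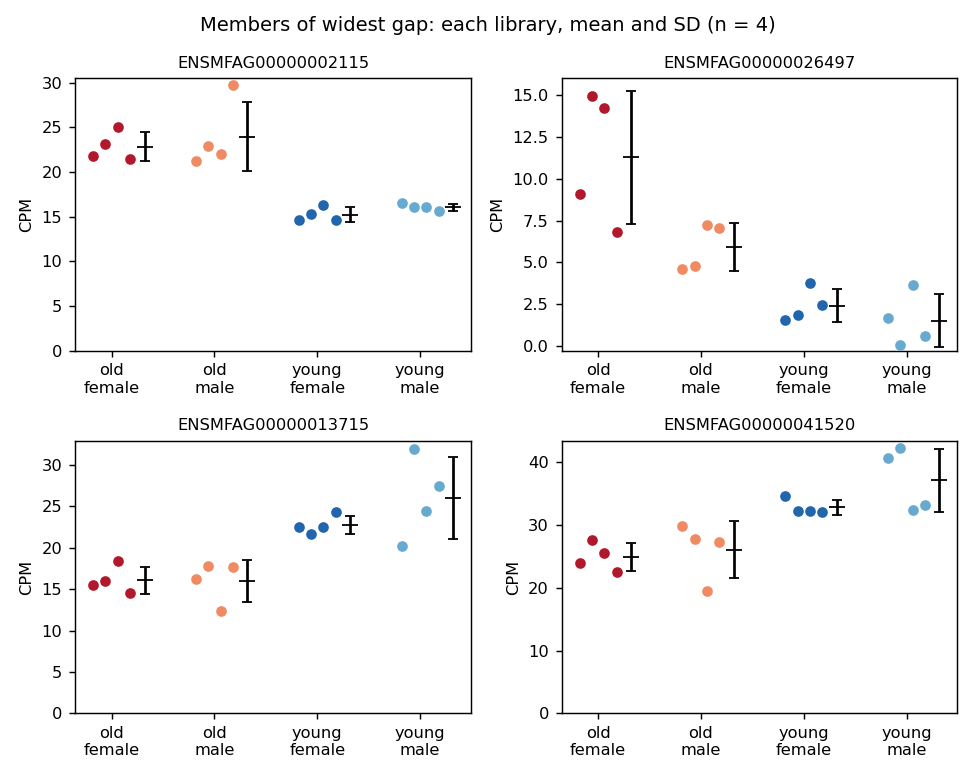
CPM of the 4 members with the widest gaps in each library, by group, with the mean and SD of each group of 4 beside the points. In the top panels all old libraries lie above all young ones, and in the bottom panels the reverse holds, with the closest approach for ENSMFAG00000013715 between old female 3 (18.4 CPM) and young male 1 (20.2 CPM).

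The other 30 genes lower in old lungs had smaller gaps. The median gap of all 32 was 1.02, and 13 of them had a gap under 1.01. Levels spanned 7.15 to 261 CPM, with 7 genes under a mean of 20 CPM, 21 between 20 and 100 CPM, and 4 at 100 CPM or more. The largest ratio was that of ENSMFAG00000036617, with 10.2 ± 1.79 CPM in old and 26.4 ± 22.8 CPM in young libraries (SD, n = 8 each). Its large spread in young lungs came from young male 3, at 81.8 CPM, while the other 7 young libraries had 13.0 to 24.6 CPM and the old ones 7.73 to 12.3 CPM. Its log2 fold change was -1.30 (SE 0.31) with all libraries and -0.86 without young male 3. ENSMFAG00000039337 was the other gene with a ratio above 2. It had 18.5, 39.9 and 58.7 CPM as the lowest, median and highest values in old and 60.5, 83.9 and 107 CPM in young libraries, a log2 fold change of -1.03 (SE 0.18).

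Counting error alone was large beside these gaps. For each gene, the exact 95% Poisson intervals of the pair of libraries that set the gap were compared, and they overlapped in all 40 members. For ENSMFAG00000002115 these libraries were old male 1, with 231 counts (18.6 to 24.2 CPM), and young male 1, with 108 counts (13.6 to 19.97 CPM). For ENSMFAG00000041520 they were old male 1 with 324 counts (26.7 to 33.2 CPM) and young female 4 with 327 counts (28.6 to 35.7 CPM). Overlap of 2 intervals does not by itself show that levels were alike, so the exact 95% interval of each gap was also computed from the counts of its pair of libraries. It included 1 in 39 members and lay above 1 in ENSMFAG00000002115 (1.02 to 1.63). Each pair was picked from the data as the nearest old and young library, and the rule puts every gap above 1. These intervals therefore need not hold their 95% coverage and are no test of separation, also for that gene. Such intervals take in counting error only. Reads without molecular identifiers are not independent molecules, so the intervals may understate even that error. In 27 of the 40 genes every library held at least 100 counts, and in 1 gene, ENSMFAG00000026497, a library held under 20.

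The rule's thresholds passed through a crowded range of genes. The members just inside it had gaps of 1.0026 and 1.0030 (higher in old lungs) and 1.0003 and 1.0010 (lower). The eligible genes just outside had 0.997 and 0.989 (higher) and 0.999 and 0.995 (lower). Gaps between 1 and 1.05 were held by 5 members higher and 28 members lower in old lungs, and gaps from 0.95 to 1, which miss the rule, by 29 and 65 eligible genes. The minimum of 5 CPM cost 2 genes in each direction, the most abundant of which had 4.52 CPM, and ENSMFAG00000026497 lay just above it at 5.28 CPM. Of the 7 further genes left out by the rule, 5 also separated the classes, all lower in old lungs. None of the 200 most abundant genes did.

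Which genes met the rule depended on how libraries were scaled. CPM on total counts moves with the most abundant transcripts, and edgeR's TMM factors, which compensate for this, ran from 0.953 to 1.06. With TMM factors 9 genes were higher and 28 lower in old lungs, of which 4 and 19 were among the members. With RLE factors, a median-ratio scaling, 12 were higher and 26 lower, of which 5 and 19 were among the members. The share of lower genes was 75.7% with TMM and 68.4% with RLE factors, against 80.0% on total counts. In all, 23 of the 40 genes separated the classes under all 3 scalings, 4 higher and 19 lower. ENSMFAG00000002115, ENSMFAG00000026497, ENSMFAG00000041520, ENSMFAG00000036617 and ENSMFAG00000039337 were among these 23, with gaps of 1.27, 1.20, 1.08, 1.08 and 1.07 under TMM. ENSMFAG00000013715 was not, since its classes overlapped with a gap of 0.991 under TMM and 0.982 under RLE factors.

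**Figure D3:**
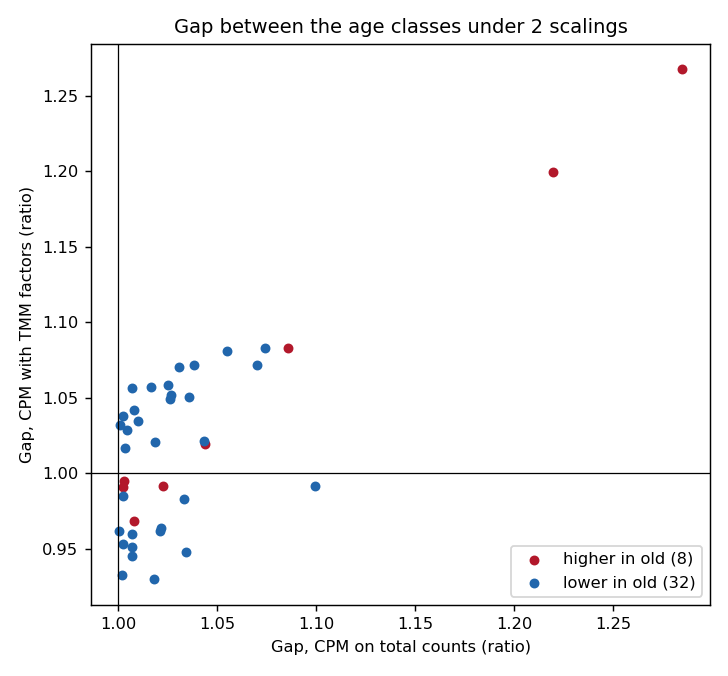
Gap of each member on total counts (horizontal) against its gap with TMM factors (vertical), both as ratios, with lines at 1, below which the classes overlap. Of the 40 genes, 17 lie below the horizontal line, among them ENSMFAG00000013715 at 1.10 and 0.991.

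The number of members also changed with single libraries. A library left out can only widen or keep a gap, so the counts mostly rose, and a member could drop out only through its mean level. The number higher in old lungs went from 8 to 22 when old female 3 was left out and to 14 and 13 for old females 1 and 4. It was 19 and 18 for old males 1 and 2, left out one at a time, and 18, 14 and 13 for young males 1, 3 and 4. The number lower went from 32 to 74 when old male 2 was left out, to 54 for old male 1 and to 50 for young male 3. Old males 1 and 2 were thus the old libraries that kept the most genes lower in old lungs from meeting the rule. Without old female 1 and old male 3, which stood apart from the rest in an earlier analysis of these data, 18 genes were higher and 37 lower, including 7 and all 32 of the members.

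Old libraries differed in how far the 32 lower genes lay below the young level. The median ratio to the mean of the young libraries was 0.583 in old male 3, 0.590 in old female 1 and 0.654 in old female 4. It was 0.748 to 0.834 in the other 5 old libraries and 0.938 to 1.10 in the young ones. Over all eligible genes the median log2 ratio to the young mean lay between -0.11 and -0.0019 in old libraries. The rule itself puts the lower genes below the young level, so their larger offset was given in advance. Old female 1 was the lowest old library in 13 of the 32 genes and old male 3 in another 13. Together these are 81.2% of the lower members, against 36.3% of eligible genes in which one of this pair was the lowest old library. Old male 1 was the highest old library in 10 genes and old male 2 in 9, together 59.4% against 32.1% of eligible genes. The lower genes were picked on these same values, and the eligible genes were not picked for a direction. Both pairs of shares are therefore descriptions, and how far the choice of genes bears on them was not tested. The depth of these libraries did not follow that order. It was 6817068 counts in old female 1, 10670475 in old male 3, 10868279 in old male 1 and 8413497 in old male 2. The share of reads without a feature (counted to no gene) came closer to that order. It was 23.1% in old male 3, 24.4% in old female 1 and 24.5% in old female 4. In old males 1 and 2 it was 26.3% and 26.9%, and the other old libraries lay between. Young libraries had 24.8% (young female 1) to 29.9% (young male 1). What sets these old libraries apart was not tested, nor was a link to that share.

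The lower genes remained lower without that pair, which the rule fixes, but by less. Their median log2 ratio of class means was -0.47 with all 8 old libraries, -0.40 without old female 1 and old male 3, and -0.78 for those 2 libraries alone. For the 8 higher genes the same values were 0.61, 0.63 and 0.69, so there the pair moved the median little.

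**Figure D4:**
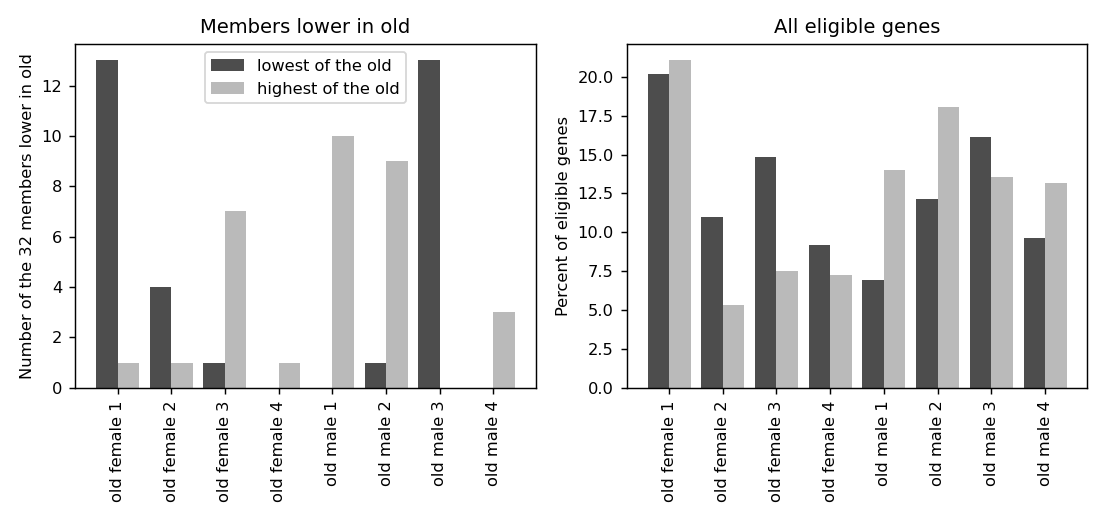
Left, the number of the 32 members lower in old lungs in which each old library had the lowest (dark) or highest (light) level among the 8 old libraries. Right, the same as a percent of all 12121 eligible genes. Old female 1 and old male 3 were each the lowest in 13 members, and old males 1 and 2 the highest in 10 and 9.

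The lower genes varied together from library to library. After the mean of each of the 4 groups was subtracted from log2 values (log2 of CPM plus 0.5), the Pearson correlation over 16 libraries had a median of 0.371 over the 496 pairs of lower genes. It was above 0 in 86.9% of these pairs. Over pairs of all eligible genes the median was 0.00822, and 50.9% of pairs were above 0. Without old female 1 and old male 3 the median of the lower genes fell to 0.159, and in young libraries alone it was 0.153, against 0.492 in old libraries alone. The 28 pairs of higher genes had a median of 0.103, and pairs of 1 higher with 1 lower gene -0.121. Pairs share libraries and depth, so these are descriptions with no test. The lower genes were also picked for their direction on these same libraries, and the eligible genes were not. How far that choice bears on the correlation was not tested.

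Within groups, the members varied less than most genes, as a rule of no overlap favours. Their median residual SD was 0.200 log2 units against 0.260 for eligible genes, and 31 of the 40 lay under the latter. None was among the 200 eligible genes most variable within groups. The SD of log2 values was larger among old than among young libraries in 26 of the 40 genes, 4 of the 8 higher and 22 of the 32 lower. Over all eligible genes this held for 60.04%.

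Both sexes contributed to the age difference. The female and male estimates share no library, and the rule fixes their common direction in all 40 genes. The median log2 fold change of the higher genes was 0.64 in females and 0.56 in males. For the lower genes it was -0.47 in each sex. The estimate was larger in females for 5 of the 8 higher and 16 of the 32 lower genes, against 56.1% of eligible genes.

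Every gene that separates the classes over both sexes also separates them within each, so counts within 1 sex cannot be lower. Separation of 4 libraries against 4 is also easier to meet. The larger counts within 1 sex are therefore no finding. Among females alone, 396 genes (3.27%) were higher and 1082 (8.93%) lower in old lungs without overlap. Among males alone, 334 (2.76%) were higher and 287 (2.37%) lower. These counts are on total counts, with no other scaling tried. On that scale the median log2 ratio of eligible genes to the young mean was -0.11 to -0.056 in old females and -0.041 to -0.0019 in old males. Whether this offset bears on the larger number lower in females was not tested. In 21 genes higher and 55 genes lower the classes separated within each sex in the same direction, and 8 and 32 of these, the members, also separated over both sexes together. In the remaining 13 and 23 genes the old libraries of 1 sex overlapped the young libraries of the other.

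**Figure D5:**
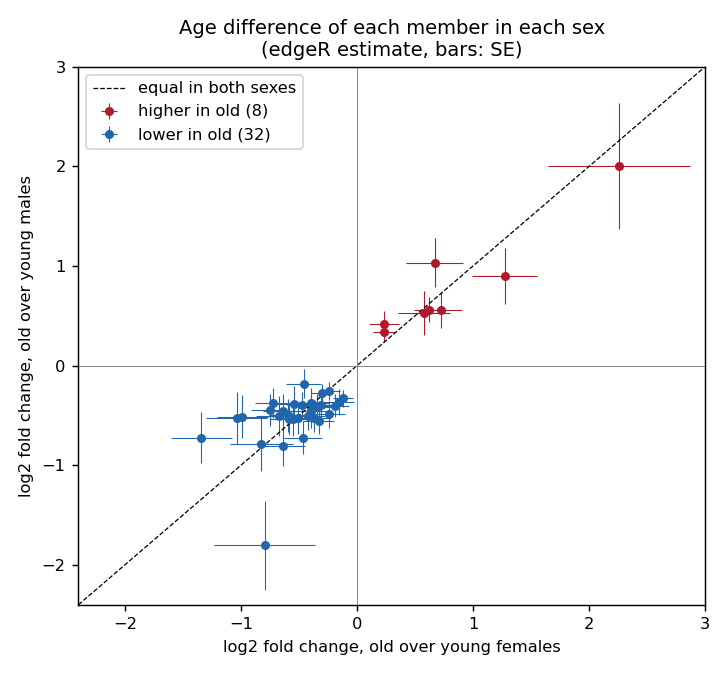
Log2 fold change of old over young in females (horizontal) and in males (vertical) for each of the 40 members, from edgeR, with bars for the SE and a dashed line where both are equal. All points lie in the quadrants where both sexes share a direction, and the lowest point is ENSMFAG00000036617 at -0.80 and -1.80.

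An interaction term tested whether females and males differed in their age difference, as the age difference in males minus that in females, in a fit over all 15472 genes with enough counts. The rule asks both sexes to separate, which limits how far their differences can part. edgeR's quasi-likelihood test called 0 of the 40 members at an adjusted p under 0.05, and 0 had an unadjusted p under 0.05. Over all genes tested the shares were 0.0% and 6.37%. DESeq2 and limma-voom also called 0 of the 40, against 55 and 0 of all 15472 genes. The smallest p values belonged to 4 genes. ENSMFAG00000039337 fell less with age in males, from 70.3 ± 7.58 to 43.2 ± 13.8 CPM, than in females, from 94.2 ± 8.38 to 36.3 ± 13.8 CPM (SD, n = 4 each), and the log2 difference of 0.62 (SE 0.37) did not pass (edgeR adjusted p = 0.852). ENSMFAG00000035847 had a log2 difference of 0.34 (SE 0.22, edgeR adjusted p = 0.865). In ENSMFAG00000041131 it was -0.21 (SE 0.12, edgeR adjusted p = 0.845), where the level went from 180.0 ± 11.6 to 163 ± 1.71 CPM with age in females but from 191 ± 19.1 to 154 ± 11.3 CPM with age in males (SD, 4 libraries per mean). In ENSMFAG00000036617 it was -1.01 (SE 0.62, edgeR adjusted p = 0.858), and -0.13 without young male 3.

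Males and females were compared over both ages. The rule did not use this contrast, but a rule of no overlap over both sexes leaves less room for large differences between them, so low counts and small differences here are partly fixed by it. edgeR called 0 of the 40 members, against 0.0323% of all genes tested, and 1 had an unadjusted p under 0.05, against 6.3%. DESeq2 and limma-voom called 0 of the 40 as well, against 33 and 5 of all 15472 genes. The smallest p was that of ENSMFAG00000040617. Its young females had 362 ± 97.9 CPM and its young males 247 ± 23.4 CPM, while old females had 179 ± 29.5 CPM and old males 175 ± 52.8 CPM (SD, n = 4 each). Young females 1 and 2, at 415 and 473 CPM, stood above all other libraries. The log2 difference, males minus females, was -0.33 (SE 0.15, edgeR adjusted p = 0.789). ENSMFAG00000026497 was also lower in males, with 5.91 ± 1.43 against 11.3 ± 3.96 CPM in old and 1.505 ± 1.58 against 2.41 ± 0.977 CPM in young lungs (SD, n = 4 each). Its log2 difference of -0.86 (SE 0.43) did not pass (edgeR adjusted p = 0.797), and the old sexes overlapped. On the other side, ENSMFAG00000042981 and ENSMFAG00000004070 had log2 differences of 0.21 (SE 0.12) and 0.19 (SE 0.11), with edgeR adjusted p = 0.828 and 0.823. Of the 40 genes 24 had a higher estimate in males and 16 in females, so 60.0% were higher in males against 48.8% of eligible genes. The median absolute log2 difference between the sexes was 0.069 over the members and 0.11 over eligible genes. A p that misses the threshold does not show that the sexes were alike.

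Within the age contrast, edgeR called 9 of 15472 genes, or 0.0582%, and 1 of the 40 members was among them, ENSMFAG00000002115. DESeq2 called 589 genes, with 37 of the 40 members, and limma-voom 16 genes, with 3. In edgeR the number of members called rose to 7 when old male 1 was left out, where 58 of 15660 genes were called. For old female 1 it was 3, with 13 of 15626 genes called. It was 0 when either young female 3 or 4 was left out, with 1 and 2 genes called. It was 2 when any 1 of old females 2 and 4, old male 2 and young males 1 and 3 was left out, with 10 to 16 genes called. With RLE factors it was 3, and with no count filter 4, with 22 genes called in each. The calls over all genes thus shifted as well. The rule used this contrast, which nearly fixes a low p in its members. All 40 had an unadjusted p under 0.05 in edgeR, against 17.7% of all genes tested. These counts therefore only place the members and lend no support to their age differences.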

How the data were processed

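The authors deposited 1 table of whole-number counts per gene for each of 16 libraries, not normalized. Per the labels' protocols, total RNA was extracted with TRIzol and libraries were made with the NEBNext Ultra RNA kit. The aligner, counter, build and annotation were not stated in any label or file header used. Entries that name no gene were left out of library sizes. Reads without a feature were 23.1% to 29.9% of all counts and ambiguous reads 1.45% to 1.86%. Such a kit does not mark strand, so overlapping antisense genes cannot be told apart, and genes with near-identical copies are uncertain.

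CPM were computed on total assigned counts, as the rule asks. Fits used R 4.3.3 and edgeR 4.0.16 (filterByExpr, TMM, robust glmQLFit, a mean per group, all 16 libraries), with Benjamini-Hochberg adjustment over all 15472 genes tested at 0.05. Each SE is the absolute log2 fold change divided by the root of F. Alternatives were DESeq2 1.42.0, limma-voom 3.58.1, RLE factors, no count filter, a replicate block, other CPM minimums and libraries left out. The procedure was tested on simulated data. Over 24 pairs of libraries of a group, the chi-square per gene was 16.6 to 70.8, so none matched within sampling noise. This does not show that they came from different animals. Genes were named as the 2 of widest gap in each direction and, for sex and interaction, the 2 of smallest p in each direction, by identifier. ENSMFAG00000036617 and ENSMFAG00000039337 are also described for their ratios. The members, lists and tests were chosen with earlier results of these data known.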

Additional observations from a re-analysis of the deposited data

Results flagged for a closer look

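In ENSMFAG00000036617, young male 3 had 81.8 CPM against 13.0 to 24.4 CPM in the other 3 young males, which Dixon's test picked out. In ENSMFAG00000041520, young female 1 had 34.6 CPM against 32.03 to 32.2 CPM in the other 3 young females, which the same test picks out because those 3 lie so close together. Over all 40 members, 6 of 160 groups of 4 values were picked out, and chance alone gives about 1 in 20, or 8.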

How the results depend on the processing

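The numbers of members higher and lower in old lungs were 8 and 32. They ran from 8 to 22 and from 33 to 74 when each library was left out in turn, and 18 were higher without old female 1 and old male 3. With a minimum of 1 CPM there were 10 and 34, with 10 CPM 6 and 31, and with no genes left out 8 and 37. The median correlation within groups among the lower genes was 0.159 without old female 1 and old male 3, 0.153 in young and 0.492 in old libraries alone, and 0.415 with TMM factors. These settings for the correlation were chosen after seeing the data. The cause of these shifts was not tested. In all 22 alternatives for sex and 22 for the interaction 0 members were called, and the lowest adjusted p were 0.468 (edgeR) and 0.543 (DESeq2). Over all genes these alternatives called 2 to 33 for sex and 0 to 55 for the interaction. Leaving out each library in turn gave 0 to 0 members called in both. With the replicate number from the titles as a replicate block, 0 members were called for sex and 0 for the interaction. The numbers do not pair libraries: deviations of same-numbered libraries correlated between -0.507 and 0.480, above 0.1 in 8 of 24 pairs, and 0 of the 16 libraries correlated best with their own number in every other group. The 242 age differences of the named members under alternatives moved by less than 1 residual SD, and their direction is set almost entirely by the rule, so it says nothing of stability. The counting interval of the gap included 1 in 39 of the 40 genes, but each pair was picked as the nearest old and young library. These intervals therefore cannot show whether depth limits the gaps, which was not tested.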
